A study of Mus musculus with 8 samples.

Results

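The inter-alpha-trypsin inhibitor family was followed across all 8 arrays of a mouse liver series, 6 of hepatocellular carcinomas and 2 of adenovirus-infected liver. Its members were the genes whose single platform symbol was Itih1, Itih2, Itih3, Itih4, Itih5 or Ambp, which gave 6 of 18194 genes on the tumour arrays and the same 6 of 12394 genes on the liver arrays. Itih5 was selected on its log2 difference between the tumour groups in an earlier reading of the same arrays. Its tumour difference is therefore given as a description, with no test, and the other 5 genes came with it by family name.

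All mice were p53-/- on a C57BL/6J background. The tumours came from HBs transgenic animals aged 12 to 15 months, 3 mTERC- (without the telomerase RNA gene) and 3 mTERC+ (with it), and each array held 1 tumour. Neither the promoter of the HBs transgene nor the cells it is active in are given in the sources used here. The livers were taken 48 hours after an intravenous dose of 2e+10 PFU of adenovirus. The virus was for TRF2DBDM (Ad TRF2DBDM) or for green fluorescent protein (Ad GFP). Full-length TRF2 binds telomeres, and TRF2DBDM is a shortened version of it. Each virus was represented by 1 array of RNA pooled from 3 mice, so nothing between the viruses could be tested. The labels give hepatocytes as the tissue, whereas the series design speaks of liver and tumour RNA.

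Inter-alpha-trypsin inhibitor circulates in plasma as a protein-glycosaminoglycan complex made by hepatocytes. Its light chain, bikunin, is a Kunitz-type protease inhibitor cut from the Ambp precursor and carries a chondroitin sulfate chain. Heavy chains encoded by Itih1, Itih2 and Itih3 are bound to that chain and can be handed over to hyaluronan, the large matrix polysaccharide, by the protein encoded by Tnfaip6. Itih4 encodes a related plasma protein that is not joined to bikunin and is known as an acute-phase protein, and Itih5 encodes a heavy chain that in human tissues is known mainly from organs other than the liver.

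The values are MAS5 signals, linear estimates of how much RNA a probe set detects, and levels were taken as log2(signal + 32). The median signal was 54.5 to 75.1 on the tumour arrays and 46.1 to 52.5 on the liver arrays. One tumour array stood apart: mTERC- tumour 2 gave 13.8 as the 3'/5' ratio of Gapdh, a sign of RNA length, against 0.983 to 1.18 on the other 5, and a mean correlation with the others of 0.788, against 0.835 to 0.847. The 18S control had a signal of 319 and 349 on mTERC- tumours 2 and 3 and of 11009.8 to 27809.9 on the other 4 tumour arrays. Of 10 hepatocyte markers, 0 were below the array median on every array. Their summed signal was 155700 to 238700 in mTERC- and 189300 to 240000 in mTERC+ tumours. Alb, Ttr, Apoa1, Apoa2 and Ahsg had the highest signals and weigh most in that sum. Of the 10 markers, 4 averaged higher and 6 lower in mTERC- tumours. The largest log2 difference was 2.04 for Cyp2e1, with overlap. It had 1714, 1867 and 487 in mTERC- tumours, against 88.7, 514 and 342.5 in mTERC+ tumours. In RNA of whole tissue, fewer cells of a type and less RNA per cell cannot be told apart.

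The 6 genes lie at 3 places in the genome (RefSeq, GRCm38.p6). Itih2 (Entrez Gene 16425, chr2:10094591-10130683, minus strand) and Itih5 (Entrez Gene 209378, chr2:10153536-10256529, plus strand) are neighbours that point away from each other, with 22852 bases and 0 annotated genes between them. Itih4 (Entrez Gene 16427, chr14:30886476-30901986, plus strand), Itih3 (16426, chr14:30908572-30923787, minus strand) and Itih1 (16424, chr14:30929180-30943289, minus strand) form a cluster with gaps of 6585 and 5392 bases. Ambp (11699, chr4:63143275-63154172, minus strand) stands alone. The 250 bases before a RefSeq transcript start, which can lie inside the gene's span, are shown for Itih5 and its neighbour Itih2, which share a locus and differ in their tumour values, and for Itih1, which had the largest difference in the opposite direction. The windows are chr2:10153293-10153542 (plus strand) for Itih5, chr2:10130684-10130933 (minus strand) for Itih2 and chr14:30943290-30943539 (minus strand) for Itih1, each written 5′ to 3′ with motif matches in capitals.
Itih5: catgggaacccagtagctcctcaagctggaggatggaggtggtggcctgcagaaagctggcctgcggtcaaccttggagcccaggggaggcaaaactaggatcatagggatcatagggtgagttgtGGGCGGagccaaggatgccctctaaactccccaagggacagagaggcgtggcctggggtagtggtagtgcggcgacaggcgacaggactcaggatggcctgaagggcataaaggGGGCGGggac
Itih2: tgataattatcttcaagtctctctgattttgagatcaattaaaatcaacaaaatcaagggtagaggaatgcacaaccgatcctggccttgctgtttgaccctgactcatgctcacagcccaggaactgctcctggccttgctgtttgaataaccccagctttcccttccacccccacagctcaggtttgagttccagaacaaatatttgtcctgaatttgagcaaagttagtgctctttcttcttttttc
Itih1: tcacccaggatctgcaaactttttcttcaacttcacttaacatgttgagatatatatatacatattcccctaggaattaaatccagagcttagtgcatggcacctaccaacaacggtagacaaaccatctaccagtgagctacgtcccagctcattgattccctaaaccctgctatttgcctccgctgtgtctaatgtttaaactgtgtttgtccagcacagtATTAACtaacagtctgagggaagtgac

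In the Itih5 window the capitals mark GGGCGG, the GC box, which was found 2 times, starting 124 and 10 bases before the start. In the Itih1 window they mark ATTAAC, the reverse strand of GTTAAT, a short motif of the hepatocyte factor HNF1. The Itih2 window held 0 of the motifs searched. These were the TATA box TATAAA, the GC box given above, the CCAAT box, the HNF1 motif given above, the HNF4-type motif CAAAGTCCA and the STAT palindrome TTCNNNGAA, on both strands, and no matches in the 6 family windows overlapped each other. Of 32841 windows of that length in the RefSeq table, 32.7% held GGGCGG and 6.43% held GTTAAT, while 12.4% held TATAAA, 33.9% held CCAAT, 0.384% held CAAAGTCCA and 7.02% held TTCNNNGAA. Elsewhere in the family, Itih3 held 1 GC box, Itih4 held 1 STAT palindrome and Ambp held 1 CCAAT. The G and C content was 61.2% for Itih5, against 42.0% for Itih1, 43.2% for Itih2, 50.8% for Itih4, 54.4% for Ambp and 58.8% for Itih3, with a median of 52.4% over all windows. A match in a window is a description of its letters and not a site of binding.

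Itih5 was the one member with a higher level in mTERC- tumours. Its signal was 760.2, 1329.5 and 1309.5 in mTERC- tumours 1, 2 and 3, against 145, 277 and 281 in mTERC+ tumours 1, 2 and 3. All 3 mTERC- tumours thus lay above all 3 mTERC+ tumours, and the highest mTERC+ value was well under the lowest mTERC- value. The mTERC- mean was 1133 ± 323 and the mTERC+ mean 234 ± 77.8 (SD over 3 tumours each). On the log2(signal + 32) scale the difference was 2.13 with an SE of 0.38, or 4.39-fold. With each tumour left out in turn the log2 difference lay between 1.86 and 2.39, and without mTERC- tumour 2, the array with the high Gapdh ratio, it was 2.00. The highest Itih5 values, in mTERC- tumours 2 and 3, were on the arrays with the low 18S control, and the part of that control's level in the Itih5 values was not tested.

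**Figure D1:**
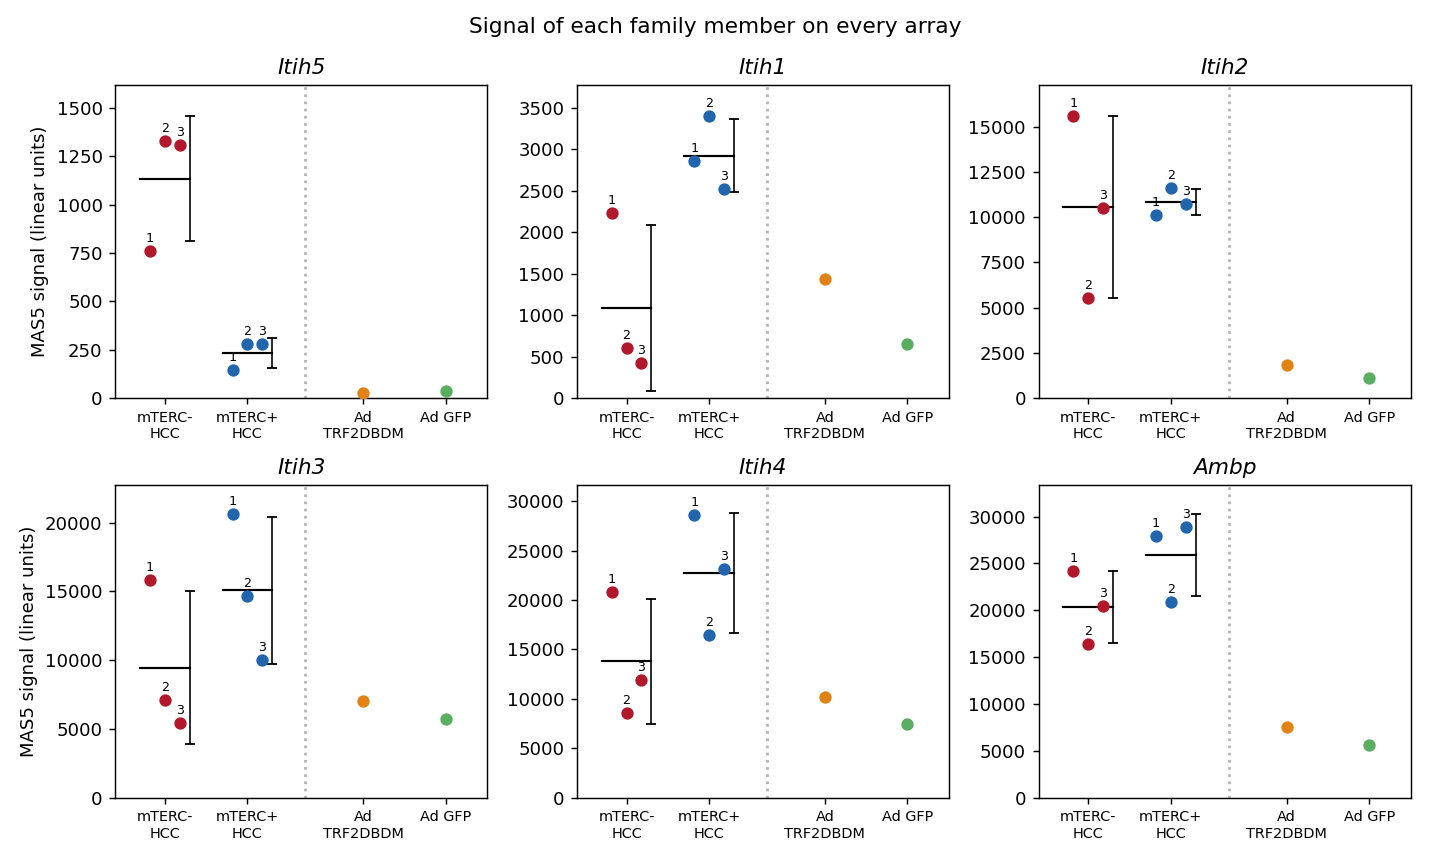
MAS5 signal (linear scale) of each member's probe set in mTERC- tumours, mTERC+ tumours, Ad TRF2DBDM liver and Ad GFP liver, left to right. Each point is an array, numbers give the tumour, black lines with bars are the mean ± SD of 3 tumours, and the dotted line parts the array types, which were scaled separately. Itih5 is high in the 3 mTERC- tumours, and Itih1 is low in mTERC- tumours 2 and 3.

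The size of the Itih5 difference depended on the probe set. Those values came from probe set 1429159_at, which had the highest mean of 3 for this gene on the tumour arrays. Probe set 1436755_at had 425, 172 and 483 in mTERC- tumours, against 72.8, 160.5 and 344 in mTERC+ tumours, a log2 difference of 0.89. Probe set 1441946_at had 202, 552 and 292 in mTERC- tumours, against 93.2, 149.5 and 258 in mTERC+ tumours, a log2 difference of 0.91. For both of these the groups overlapped, although the mTERC- mean was higher and mTERC+ tumour 1 was the lowest of the 6 each time. In mTERC- tumour 2 they disagreed: 1436755_at had its lowest mTERC- value there, and 1441946_at its highest. With the mean of the 3 probe sets the log2 difference was 1.31 (SE 0.37).

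**Figure D2:**
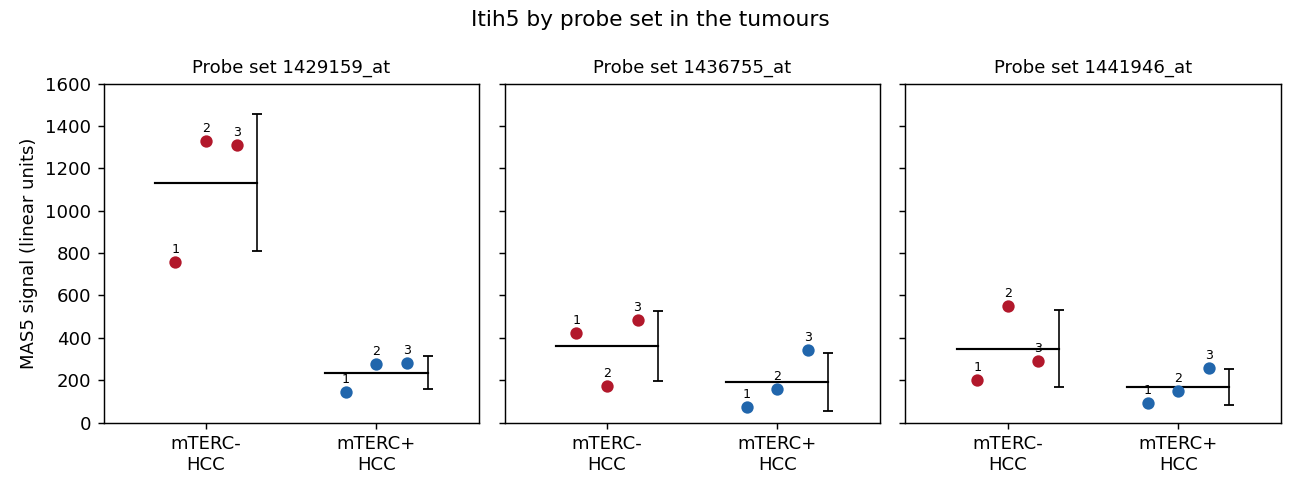
MAS5 signal (linear scale) of the 3 Itih5 probe sets in mTERC- tumours (left) and mTERC+ tumours (right). Each point is a numbered tumour, and black lines with bars are the mean ± SD of 3. Only 1429159_at parts the groups without overlap.

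In the infected livers Itih5 was low. Probe set 1429159_at, the one Itih5 probe set present on both array types, had 28.6 in Ad TRF2DBDM liver and 38.1 in Ad GFP liver, under the array medians of 52.5 and 46.1, so no ratio was taken. Among the 22690 probe sets that both array types carry, it stood at percentile 88.5, 94.05 and 92.9 in the mTERC- tumours and at 60.7, 74.8 and 75.6 in the mTERC+ tumours. It stood at percentile 34.9 in Ad TRF2DBDM liver and 45.5 in Ad GFP liver. By this probe set the order of the Itih5 level was thus mTERC- tumours, mTERC+ tumours, infected livers. Its first step is the difference on which Itih5 was selected, and for the other Itih5 probe sets the tumour groups overlapped. The array types were scaled separately, so the step between tumours and livers is a description with no test.

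The heavy chain gene Itih1 had a lower signal in each mTERC- tumour than in any mTERC+ tumour. Its signal was 2236, 599.9 and 421 in mTERC- tumours 1, 2 and 3, against 2865, 3399 and 2517 in mTERC+ tumours. The groups did not overlap, and the difference came mostly from mTERC- tumours 2 and 3, since mTERC- tumour 1 was close to the mTERC+ range. The mTERC- mean was 1086 ± 1000 and the mTERC+ mean 2927 ± 444 (SD over 3 tumours each), and the log2 levels differed by -1.76 with an SE of 0.48. This missed the threshold (limma, Benjamini-Hochberg adjusted p = 0.906). These low tumours are also those with the low 18S control, and 1 of them has the high Gapdh ratio; the part of either in the Itih1 values was not tested. Without mTERC- tumour 1 the log2 difference was -2.46 and passed (adjusted p = 0.0190 in limma), whereas the adjusted p over all the alternatives ran from 0.0190 to 0.999. Without mTERC- tumour 3 the log2 difference was -1.30.

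The partner heavy chain gene Itih2 did not follow either of them. Its signal was 15615, 5535 and 10511 in mTERC- tumours, against 10147, 11604 and 10755 in mTERC+ tumours. The mTERC- tumours held both the highest and the lowest value of the 6, and the mTERC+ tumours lay close together between them. On the log2 scale it differed by -0.16 (SE 0.37; limma adjusted p = 0.985), and it was 0.24 without mTERC- tumour 2, which changed its sign.

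Itih3 and Itih4, the other genes of the chromosome 14 cluster, had a lower mean in mTERC- tumours with overlap between the groups. Itih3 had 15816, 7109 and 5425 in mTERC- tumours, against 20623, 14629.9 and 9995 in mTERC+ tumours, which differed by -0.77 on the log2 scale (SE 0.41; limma adjusted p = 0.953). Itih4 had 20857, 8607 and 11958 in mTERC- tumours, against 28605, 16487 and 23126 in mTERC+ tumours, which differed by -0.78 on the log2 scale (SE 0.37; limma adjusted p = 0.953). For both genes mTERC- tumours 2 and 3 were the lowest of the 6 and mTERC+ tumour 1 the highest. Ambp, the gene of the light chain, had 24172, 16437 and 20458 in mTERC- tumours, against 27923, 20907 and 28909.7 in mTERC+ tumours. On the log2 scale it differed by -0.35 (SE 0.31; limma adjusted p = 0.967), with mTERC- tumour 2 the lowest and an overlap between the groups.

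Seen together, the 5 relatives of Itih5 averaged lower in mTERC- tumours. Their median log2 difference was -0.77, against 0.02 over all 11980 genes tested. Of these 5, 0 passed in limma and 1, Itih1, had an unadjusted p under 0.05. Over all genes 0.00835% passed in limma, 5.04% had an unadjusted p under 0.05, and in 4.39% the mTERC- tumours lay below all mTERC+ tumours with no overlap, as 1 of the 5 relatives did. In 5.75% of genes they lay above with no overlap, as Itih5 did, which makes 10.1% in either direction. Dropping mTERC- tumour 1 gave the relatives a median of -1.13, dropping mTERC- tumour 2 gave -0.49, dropping mTERC- tumour 3 gave -0.44 and dropping mTERC+ tumour 1 gave -0.51. All 5 averaged lower each time except without mTERC- tumour 2, where 4 did. The low 18S control of mTERC- tumours 2 and 3 goes with these values too, and its part was not tested.

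**Figure D3:**
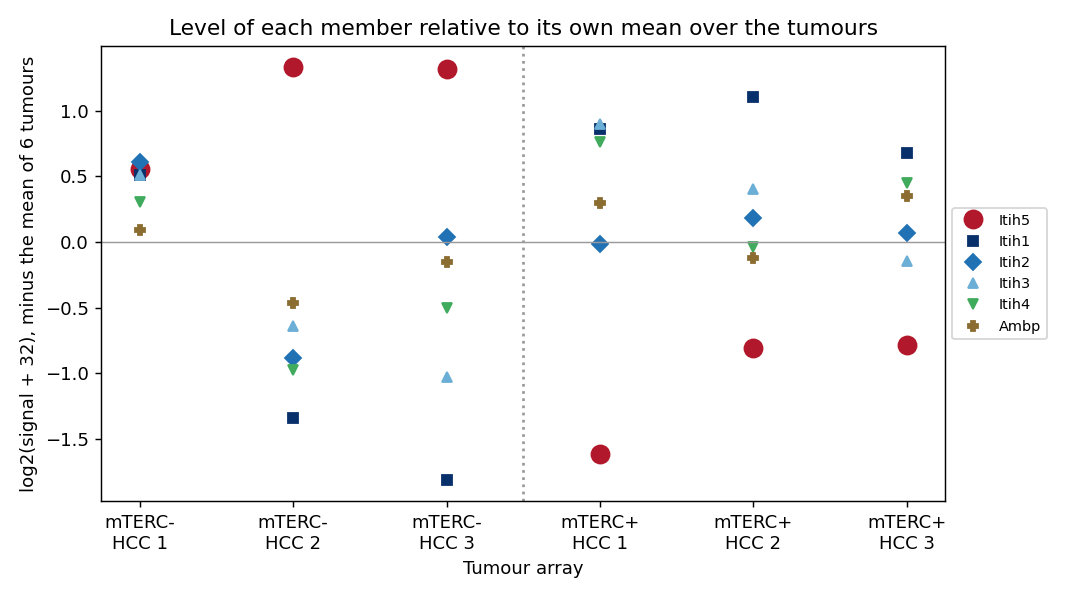
Level of each member in each tumour as log2(signal + 32) minus the gene's own mean over the 6 tumours, with mTERC- tumours to the left of the dotted line and mTERC+ tumours to the right. In mTERC- tumours 2 and 3 Itih5 is at 1.33 and 1.31 while Itih1 is at -1.34 and -1.81, and in mTERC- tumour 1 all 6 members lie above their means.

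Within the mTERC- group the family therefore split by tumour. In mTERC- tumour 1 all 5 relatives were above their own mean over the 6 tumours, by 0.09 (Ambp) to 0.61 (Itih2) on the log2 scale, and Itih5 was above its mean as well. In mTERC- tumour 2 all 5 were below, with log2 levels of -0.47 (Ambp) to -1.34 (Itih1) relative to that mean. In mTERC- tumour 3 they ran from 0.04 (Itih2) to -1.81 (Itih1). In mTERC+ tumour 1, where Itih5 had its lowest level (-1.61), Itih3 and Itih4 had their highest.

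Other plasma proteins made by hepatocytes gave a frame for the relatives. Of 26 listed genes 24 were measured and tested, of which 20 averaged lower and 4 higher in mTERC- tumours. Their median log2 difference was -0.27. Of them 0 passed in limma, and 1, Serpinc1, had an unadjusted p under 0.05, against 5.04% of all genes. Serpinc1 was also the 1 of the 24 whose groups did not overlap. It was lower in mTERC- tumours, a direction without overlap in 4.39% of all genes. The lowest were Serpinc1, the gene of antithrombin, at -0.85 (SE 0.38), and F10, coagulation factor X, at -0.69 (SE 0.41). The highest were Hrg, histidine-rich glycoprotein, at 0.50 (SE 0.34), and Cp, the copper-carrying ceruloplasmin, at 0.17 (SE 0.29). The log2 difference of Itih1 lay below all 24 of these, Itih3 and Itih4 lay between Serpinc1 and F10, and Itih2 and Ambp lay among the rest. Without mTERC- tumour 2 the list had 15 lower and 9 higher means and a median of -0.04, and without mTERC+ tumour 3 it had the same counts and a median of -0.10.

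In the infected livers all 5 relatives had a higher signal with Ad TRF2DBDM than with Ad GFP. Itih1 had 1442 in Ad TRF2DBDM liver and 656 in Ad GFP liver, a log2 ratio of 1.10. Itih2 had 1849.5 in Ad TRF2DBDM liver and 1094 in Ad GFP liver, a log2 ratio of 0.74. The ratios of the others were smaller: Itih4 had 10176 in Ad TRF2DBDM liver and 7456 in Ad GFP liver (0.45). Ambp had 7498 in Ad TRF2DBDM liver and 5658 in Ad GFP liver (0.40), and Itih3 had 7055 in Ad TRF2DBDM liver and 5734 in Ad GFP liver (0.30). Of the 6 members 5 reached the level filter, and 1 of those 5 was at least 2-fold higher, whereas 4.62% of the 7789 genes compared were at least 2-fold higher and 52.0% were higher by any amount. Of the 5, 0 were at least 2-fold lower, against 2.90% of the genes compared. With each array centred on its median, a shift of 0.11 on the log2 scale, the ratio of Itih1 was 0.99 and no longer reached 2-fold.

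The other plasma protein genes also stood higher in the Ad TRF2DBDM pool. Of 24 compared, 23 were higher and 4 at least 2-fold so, with a median log2 ratio of 0.69, against 0.45 for the 5 relatives and 0.02 for all genes compared. Hrg had the highest ratio, with 2969 in Ad TRF2DBDM liver and 600.5 in Ad GFP liver (2.25), followed by F10 with 2562 in Ad TRF2DBDM liver and 771 in Ad GFP liver (1.69). The lowest were Cp, at -0.15, and Serpinf2, the gene of an inhibitor of plasmin, at 0.02. The summed signal of the hepatocyte markers was 69740 in Ad TRF2DBDM liver and 44950 in Ad GFP liver, and its part in the family's ratios was not tested. That sum is not apart from the plasma protein list, since Alb, Ttr, Apoa1, Apoa2 and Ahsg are in both. Of its other markers, Cps1 had a log2 ratio of 1.81, Cyp2e1 1.54, Tat 0.85, Pck1 0.40 and Hnf4a -0.36. These values compare 2 pools and carry no error.

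**Figure D4:**
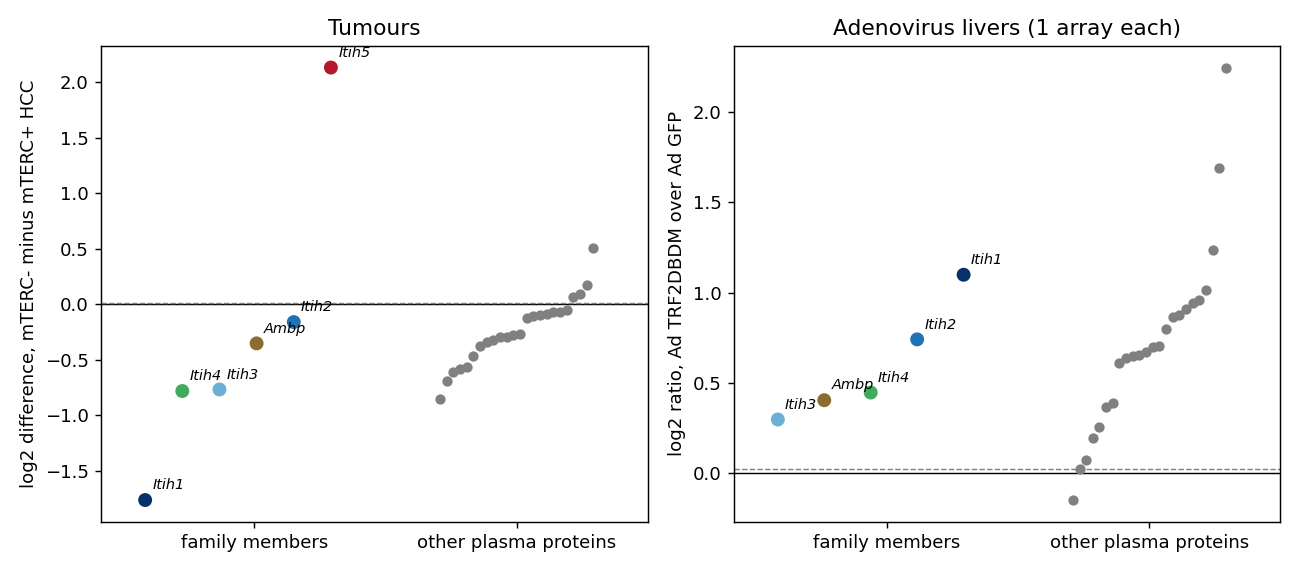
Log2 difference (mTERC- minus mTERC+ tumours, left panel) and log2 ratio (Ad TRF2DBDM over Ad GFP liver, right panel) of the family members, each named, beside 24 other hepatocyte plasma protein genes (grey, in order of value). The dashed line is the median of all genes and the solid line is 0. In the tumours Itih5 lies above and Itih1 below every grey point, and in the livers the 5 members compared are all above 0.

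The genes that make, bind or break down hyaluronan, the polymer to which heavy chains can be transferred, had no common direction. Of 19 listed genes 18 were measured and 10 tested in the tumours, where 5 averaged higher and 5 lower in mTERC- tumours. Their median log2 difference was -0.07. Of them 0 passed in limma, and 1, Habp2, had an unadjusted p under 0.05, against 5.04% of all genes. Habp2, a hyaluronan-binding plasma protease made by hepatocytes, had the lowest difference, at -0.92 (SE 0.39; limma adjusted p = 0.953). It was followed by Stab2, a hyaluronan scavenger receptor of sinusoidal endothelium, at -0.35 (SE 0.59). The highest were Hmmr, a hyaluronan-binding protein that is also a mitotic spindle gene, at 0.39 (SE 0.44), and Cd44, a hyaluronan receptor, at 0.13 (SE 0.40). In the infected livers 8 of these genes were compared and 6 had a higher signal with Ad TRF2DBDM, with a median log2 ratio of 0.07. Habp2 had 509.7 in Ad TRF2DBDM liver and 161 in Ad GFP liver (1.49). Stab2 had 94.6 in Ad TRF2DBDM liver and 60 in Ad GFP liver (0.46). Cemip2, a cell-surface hyaluronidase, had 114 in Ad TRF2DBDM liver and 181 in Ad GFP liver (-0.55), and Cd44 had 156 in Ad TRF2DBDM liver and 217 in Ad GFP liver (-0.40). Tnfaip6, mentioned here because its protein transfers heavy chains, was below the array median on all 8 arrays. It had 44.2, 8.1 and 37.7 in mTERC- tumours and 10.8, 3.4 and 6.5 in mTERC+ tumours, and 11.5 in Ad TRF2DBDM liver and 11 in Ad GFP liver, levels at which no difference was tested.

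The enzymes that build the chondroitin sulfate chain of bikunin had mixed directions. Of 14 listed genes 13 were measured and 8 tested, where 5 averaged higher and 3 lower in mTERC- tumours. Their median log2 difference was 0.37. Of them 0 passed in limma, and 1 had an unadjusted p under 0.05, against 5.04% of all genes. That gene was B3gat3, which completes the linker between protein and chain, with 179, 153 and 142 in mTERC- tumours, against 285, 436 and 336 in mTERC+ tumours. It was the 1 of the 8 whose groups did not overlap, against 4.39% of all genes in that direction. The log2 values differed by -1.001 with an SE of 0.36 (limma adjusted p = 0.953). The next lowest was Chst11, a chondroitin sulfotransferase, at -0.08 (SE 0.67). The highest were Csgalnact1, which starts the chain, at 0.87 (SE 0.57), and B3galt6, a linker galactosyltransferase, at 0.82 (SE 0.60). In the infected livers 1 of 5 compared was higher with Ad TRF2DBDM, with ratios of -0.20 (Chpf) to 0.24 (B3galt6).

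Markers of other cell types were read beside Itih5, and of all these lists 1 gene, S100a8 of the neutrophil list, passed in limma. Each of the 7 neutrophil markers averaged higher in mTERC- tumours, with a summed signal of 9073 to 21860 in mTERC- and 353 to 3011 in mTERC+ tumours. For 3 of the 7, S100a8, S100a9 and Csf3r, genes of neutrophil proteins, the groups did not overlap, against 5.75% of all genes in that direction. An unadjusted p under 0.05 in limma was reached by 5 of the 7, against 5.04% of all genes. S100a8 had a log2 difference of 3.75 (limma adjusted p = 0.0246) and was the 1 gene of all tested to pass. No higher gene, and so not S100a8 either, passed with median centring, a pseudocount of 1, the filter at percentile 75, the mean of probe sets or no variance trend, nor when mTERC- tumour 2, mTERC+ tumour 1 or mTERC+ tumour 3 was dropped. Of 8 cholangiocyte and progenitor markers 5 were measured, with a summed signal of 428 to 762 in mTERC- and 284 to 421 in mTERC+ tumours. The 2 of them tested, Epcam (0.55) and Sox9 (0.40), both averaged higher on the log2 scale in mTERC- tumours, with overlap and without passing in limma. Krt7, a defining keratin of these cells, was below the array median on every tumour array. Krt19, the other keratin listed, had 34.7, 265.6 and 6.2 in mTERC- tumours and 13.5, 6.2 and 77.6 in mTERC+ tumours, and was not tested. It was above the array median in mTERC- tumour 2 and mTERC+ tumour 3. Its 265.6 is part of the sum of 762, which came from mTERC- tumour 2, the array with the high Gapdh ratio. The 12 markers of stellate cells and fibroblasts, of which 7 averaged higher and 5 lower, summed to 5114 to 8954 in mTERC- and 4590 to 11490 in mTERC+ tumours. All 7 tested macrophage markers and 9 of 10 endothelial markers averaged lower in mTERC- tumours. Of these, 3 of the 7 and 1 of the 10 had an unadjusted p under 0.05 in limma. The groups did not overlap for 1 of 10 endothelial markers, Icam2 (-1.835), and 1 of 12 stellate cell and fibroblast markers, Pdgfrb (-0.60). Both were lower in mTERC- tumours, a direction without overlap in 4.39% of all genes. The macrophage sums were 7321 to 9963 in mTERC- and 6333 to 34430 in mTERC+ tumours, and the endothelial sums 1726 to 2966 in mTERC- and 2043 to 4434 in mTERC+ tumours. The 5 adipocyte and mesothelial markers measured summed to 90.3 to 194 in mTERC- and 58.5 to 218 in mTERC+ tumours, and Adipoq, Msln and Wt1 were below the median on all 6. The part of any of these cells in the Itih5 signal was not tested.

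The genes whose tumour pattern was most like that of Itih5 were found by the root-mean-square difference between centred log2 levels over the 6 tumours, among all genes tested. The closest was Mdn1, a protein of ribosome assembly, at a difference of 0.32, with 139, 167 and 145 in mTERC- tumours and 5, 6.9 and 11 in mTERC+ tumours. It was followed by Hsbp1l1 and Nfasc, a neural adhesion protein, both at about the same distance (0.35 and 0.36). Ptpn23, a phosphatase of endosomes (0.36), and Slc5a5, the iodide transporter (0.37), came next. For the mean pattern of the 5 relatives the closest genes were Nfkb2, an NF-kappaB subunit (0.07), and Psme1, a proteasome activator subunit (0.10). Psme1 had 3138, 1297 and 1641 in mTERC- tumours, against 3786, 3241 and 3492 in mTERC+ tumours, and so shared the low values of mTERC- tumours 2 and 3. Ebp, a sterol isomerase (0.12), Slc6a2, a noradrenaline transporter (0.14), and the predicted gene Gm8479 (0.15) followed. Itih5 was selected on the difference between these groups, so genes with a pattern like its own part the groups too. In mTERC+ tumours Nfasc had 7.3, 19.2 and 7.7, Ptpn23 11.1, 7.4 and 35.2 and Slc5a5 7.1, 16.2 and 12. Like those of Mdn1, these values lay under the array medians of 57.2 to 59.4. Such genes reached the level filter through the mTERC- tumours. Hsbp1l1 had 6.7, 77 and 61.7 in mTERC+ tumours. These likenesses rest on 6 arrays that all genes share, and they are descriptions.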

How the data were processed

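Total RNA was extracted and 6 microg per array was labelled with biotin, per the labels. Per the submitters' processing notes, which name MAS5 without a version, the deposited value of a probe set is its signal intensity, here found to be linear. No source used here states the scaling target. The series design names Array Assist 4.0 for the submitters' gene clusters. Without the lowest and highest 2% of signals the mean was 150 on each array, so arrays were used as the authors scaled them.

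Of 45101 probe sets on the tumour arrays 34958 had 1 symbol, 932 several and 9211 none in the platform annotation, and of 22690 on the liver arrays 20393, 691 and 1606. Symbols were updated by Entrez ID with a RefSeq table (GRCm38.p6), which held all 6 members. Each gene took its probe set with the highest mean log2(signal + 32). In the tumours, genes whose mean level reached the median over probe sets were tested with limma 3.58.1 in R 4.3.3 (variance trend, two-sided, Benjamini-Hochberg over all 11980 genes, threshold 0.05). Fold changes are on the log2(signal + 32) scale and understate those of low signals. All 6 members passed that level filter. In the livers, genes reaching the array median on either array were compared, which left 5 of the 6 members, and a ratio of 2 was counted.

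Named genes were all members, the 2 highest and 2 lowest of the lists of hyaluronan, chondroitin and plasma protein genes in either comparison, and the 5 most alike. Tnfaip6, the single markers of hepatocytes and other cell types and the neighbouring genes lie outside that rule and were named after their values were seen. Members, lists and rules were chosen with earlier results of these data known. The alternatives were quantile normalization, median centring, pseudocounts of 1 and 64, no level filter, a filter at percentile 75, the mean of probe sets, no variance trend, array weights and each tumour left out in turn. The counts of the gene lists with a tumour left out were added after the data were seen. Code was tested on simulated data. Promoter windows are from RefSeq, and their motifs were matched with Python 3.11.15. The number of arrays limits the precision. Trf, Gc, Hyal1 and Xylt1 of the lists were not analysed here.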

Additional observations from a re-analysis of the deposited data

How the results depend on the processing

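The log2 difference of Itih5 kept its direction in all 15 alternatives. It was 1.31 with the mean of probe sets and 1.86 to 2.39 with each tumour left out. Itih5 was selected on this difference, and by the probe set used its tumour groups do not overlap. Its direction could therefore not change with a tumour left out, and these values are a description. With each tumour left out, Itih1 ran from -2.46 to -1.30 and passed in limma only without mTERC- tumour 1, and Itih2 ran from -0.50 to 0.24, its sign changing without mTERC- tumour 2. Itih3 ran from -1.21 to -0.44, Itih4 from -1.13 to -0.49 and Ambp from -0.50 to -0.21, each with the same sign throughout. Over all genes 1 was higher and 0 lower in mTERC- tumours. That count of higher genes was 0 with median centring, a pseudocount of 1, the filter at percentile 75, the mean of probe sets and no variance trend. With a tumour left out it was 4 without mTERC- tumour 1 and 2 when mTERC+ tumour 2 was dropped. It was 1 when mTERC- tumour 3 was dropped and 0 for each of the other 3, and the count of lower genes was 2 without mTERC- tumour 1 and 0 otherwise. The causes were not tested. In the livers the Itih1 ratio was 0.99 with median centring, below the 2-fold line, and the other 4 ratios kept their direction. Of the 8 chondroitin genes 1 to 3 had a lower mean with a tumour left out, the 1 being without mTERC+ tumour 1. No paired analysis was possible because the tumours' titles give no replicate numbers that the groups share. With 3 tumours a group and 1 array a virus, the number of arrays limits every value.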

Other observations

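The genes within 500 kb of the members were read in the same tumours, as a description of the loci that was chosen after the data were seen. Beside Itih2 and Itih5 on chromosome 2, 3 neighbours were tested and all averaged higher in mTERC- tumours. Taf3, a subunit of the basal transcription factor TFIID, had a log2 difference of 0.36, Kin, a DNA-binding protein, of 0.31 and Atp5c1, a subunit of the mitochondrial ATP synthase, of 0.25. Atp5c1 had 10305, 8151 and 8480.3 in mTERC- tumours, against 7390, 7772 and 7350.2 in mTERC+ tumours, with no overlap. It was 1 of the 3 neighbours to do so, against 5.75% of all genes in that direction. The log2 difference of Itih5 was 2.13, and Itih2, which lies between them and Itih5, had -0.16. Gata3 and Sfmbt2 of the same stretch were too low to be tested.

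Around the chromosome 14 cluster, 23 neighbours were tested, of which 9 averaged higher and 14 lower in mTERC- tumours, with a median log2 difference of -0.13. In 1 of the 23 the mTERC- tumours lay below all mTERC+ tumours, against 4.39% of all genes. That gene was Pbrm1, a chromatin remodelling gene, with 234, 279 and 228 in mTERC- tumours, against 555, 374 and 436 in mTERC+ tumours, a log2 difference of -0.79 (limma adjusted p = 0.953). Nek4, a kinase gene next to Itih1, had a log2 difference of -1.41 with overlap. It had 9.9, 7 and 134.2 in mTERC- tumours, against 142, 147.5 and 129.8 in mTERC+ tumours. The difference came from mTERC- tumours 1 and 2, where Nek4 was under the array medians of 57.5 and 75.1. Around Ambp, 10 neighbours were tested, of which 3 averaged higher and 7 lower, with a median of -0.36. The groups did not overlap for 2 of the 10 higher in mTERC- tumours, Tmem268 (0.67) and Akna (0.46), against 5.75% of all genes. They did not overlap for 1 of the 10 lower in mTERC- tumours, Atp6v1g1 (-0.58), against 4.39% of all genes.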
